A study of Mus musculus with 7 samples.

Results

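Coarse cluster 0 is the largest cell population that the authors' clustering found in the mouse uterus before and during pregnancy. Louvain clustering groups cells with similar expression profiles, and at resolution 0.2, the coarsest setting used here, it gave 19 clusters. The members were chosen by the authors' cluster number alone, which rests on the cells' own expression: every cell annotated as cluster 0 at that resolution was taken. It held 33308 of 107443 cells (31.0%), and the next largest cluster held 13325 cells (12.4%). The annotation gives no gene values and no names, so the population keeps its number here and its cell type was not checked against markers. At the authors' resolution of 2 it split into 22 sub-clusters, and 7 of these, numbered 0, 2, 4, 5, 6, 13 and 29, each held at least 1% of it.

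The cells came from Kdm6b cKO mice and from control mice. Kdm6b encodes a demethylase that removes a repressive methyl mark from histone H3, and cKO commonly abbreviates conditional knockout. The uterine wall consists of the endometrium, a mucosa of epithelium and stroma, and the myometrium, the smooth muscle that contracts at labour; between implantation sites the wall is not occupied by a conceptus. The series is presented by its title as a study of how gestation length is timed epigenetically in mice. The driver of the deletion and the strain and age of the mice were not stated in the labels, and without gene values the loss of Kdm6b could not be checked.

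Each specimen was a piece of uterus from mice of one genotype, site and gestation day, frozen, digested and tagged with oligonucleotides (hashing) before droplet 3′ sequencing. There were 28 specimens, 14 cKO and 14 control. Inter-implantation tissue was taken at days 5, 8, 12, 14, 16 and 18, and non-pregnant mice given progesterone (0.2 mg a day over 3 days) provided an additional time point, annotated as 0 and listed under the same site. That site had 1 specimen per genotype and time point, with the non-pregnant, day 5 and day 8 specimens in experimental batch 3 and days 12 to 18 in batch 2. Myometrium/endometrium of implantation sites was taken at day 12 (1 specimen per genotype in each of 3 batches), days 14 and 16 (1 per genotype, batch 1) and day 18 (1 per genotype in batches 1 and 2). Non-pregnant and early inter-implantation specimens each pooled 2 mice. Whether specimens of the different sites came from the same mice was not stated, so the p-values measure the spread between specimens.

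Specimens held 1769 to 5720 cells, of which 307 to 2621 were in coarse cluster 0. Repeat pools of the same specimen gave shares of coarse cluster 0 that differed by a median of 2.04 percentage points and at most 6.71, and the pools of 4 of the 28 specimens differed beyond counting error (chi-square test, adjusted p under 0.05). Of the cells of coarse cluster 0, 866 (2.60%) carried a barcode that occurred in more than 1 pool. The share differed between the batches, which also differed in site and day, and batch 1 held myometrium/endometrium only. Pooled over sites and days, the share was 17.2% of cells in batch 1 (10.8 to 24.1% over specimens), 40.4% in batch 2 (28.5 to 59.6%) and 32.9% in batch 3 (16.8 to 41.4%). In the same order of batches, the median UMIs (counted RNA molecules) of all cells were 3670, 8082 and 6154, and among cells with at least 3000 UMIs the share was 29.6%, 45.8% and 39.4%. In day 12 myometrium/endometrium, sampled in all 3 batches, the share of all cells was 10.8%, 46.3% and 36.3% in cKO and 11.1%, 29.7% and 34.3% in control. The parts of depth, site and day in the batch difference were not tested further.

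Cells of coarse cluster 0 were deeper than the remaining cells. Their median was 9422 UMIs and 2408 genes, against 4408 UMIs and 1661 genes in all other cells, and the UMI median was higher in 28 of 28 specimens. Ribosomal protein genes took a median of 24.9% of their UMIs, against 19.8% in other cells, and were higher in 22 of 28 specimens. Mitochondrial genes took 2.18% and 2.95%, and were lower in coarse cluster 0 in 28 specimens. Few of its cells carried a cell-cycle call other than G1: 5.68% were called S and 3.42% G2M, against 11.5% and 18.1% of other cells, and these were lower in 26 and 27 of the 28 specimens. The clusters were made from the same cells' genes, so these values describe the population and were not tested, and phase calls without gene values are not read as cycling.

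The 7 large sub-clusters accounted for 97.7% of coarse cluster 0. Sub-cluster 0 held 23.3% of it (7763 cells), sub-cluster 2 18.1% (6016 cells), sub-cluster 4 15.9% (5310 cells), sub-cluster 5 15.0% (4999 cells) and sub-cluster 6 14.8% (4940 cells). Sub-cluster 13 held 6.76% (2251 cells) and sub-cluster 29 held 3.76% (1253 cells). The other 15 held 776 cells in all (2.33%), with 1 to 302 cells each. All 7 large ones lay almost wholly inside the population: between 99.1% (sub-cluster 29) and 100.0% (sub-clusters 0 and 2) of their cells were in coarse cluster 0. Cluster 30 straddled its edge, with 250 cells (19.98% of that cluster) inside.

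The intermediate resolution of 0.4 cut the population into 2 main groups. One held 20267 cells (60.8%) and took in sub-clusters 0, 2, 13 and most of 29, and the other held 12912 cells (38.8%) and took in sub-clusters 5 and 6. Sub-cluster 4 was divided between them, with 55.5% of its cells with sub-clusters 0, 2 and 13 and 44.4% with sub-clusters 5 and 6. The remaining 129 cells fell into other clusters.

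The sub-clusters differed in depth. Sub-cluster 5 had the highest median of the large ones, 13957 UMIs, followed by sub-cluster 4 with 11718.5, while sub-clusters 13 and 6 had 9608 and 9319.5, and sub-clusters 0 and 2 had 8417 and 7553. Sub-cluster 29 stood apart, with 2037 UMIs and 942 genes per cell, 11.03% mitochondrial UMIs and 8.58% ribosomal UMIs at the median. At the other end, the 302 cells of sub-cluster 49 had a median of 28600.5 UMIs. The file was used as the authors filtered it, and doublets were not called again.

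Most phase calls were G1 in every large sub-cluster, with the lowest share, 60.1%, in sub-cluster 29. Sub-cluster 5 had the fewest calls outside G1, with 3.00% S and 0.780% G2M, and sub-cluster 4 had 3.77% S and 1.69% G2M. Sub-cluster 6 had 5.26% S and 1.23% G2M, and sub-cluster 13 had 5.11% S and 3.91% G2M. Sub-cluster 0 had 6.52% S and 3.68% G2M, and sub-cluster 2 had 5.83% S and 5.25% G2M. In sub-cluster 29 the calls were 21.6% S and 18.3% G2M, the highest among the large sub-clusters and at the lowest depth. The calls also differed between the batches, which differ in site and day. In sub-cluster 0, S calls were 14.4%, 6.63% and 1.93% and G2M calls 2.83%, 0.314% and 9.23% in batches 1, 2 and 3. Within batch 3 its G2M calls ranged from 3.97% in the non-pregnant control specimen to 31.3% in the day 5 control specimen.

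Ribosomal content separated the sub-clusters in some specimens and hardly in others. Over all cells its median was 31.4% of UMIs in sub-cluster 2 and 28.8% in sub-cluster 0, 26.3% in sub-cluster 13, 25.5% in sub-cluster 6, 23.3% in sub-cluster 5 and 21.2% in sub-cluster 4. In sub-cluster 0 the median was 17.9% in batch 1, 26.5% in batch 2 and 46.3% in batch 3. In sub-cluster 5 it was 14.9%, 24.0% and 24.8% in the same batches. Of the 3 batches, sub-clusters 0 and 5 stood furthest apart in batch 3.

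**Figure D1:**
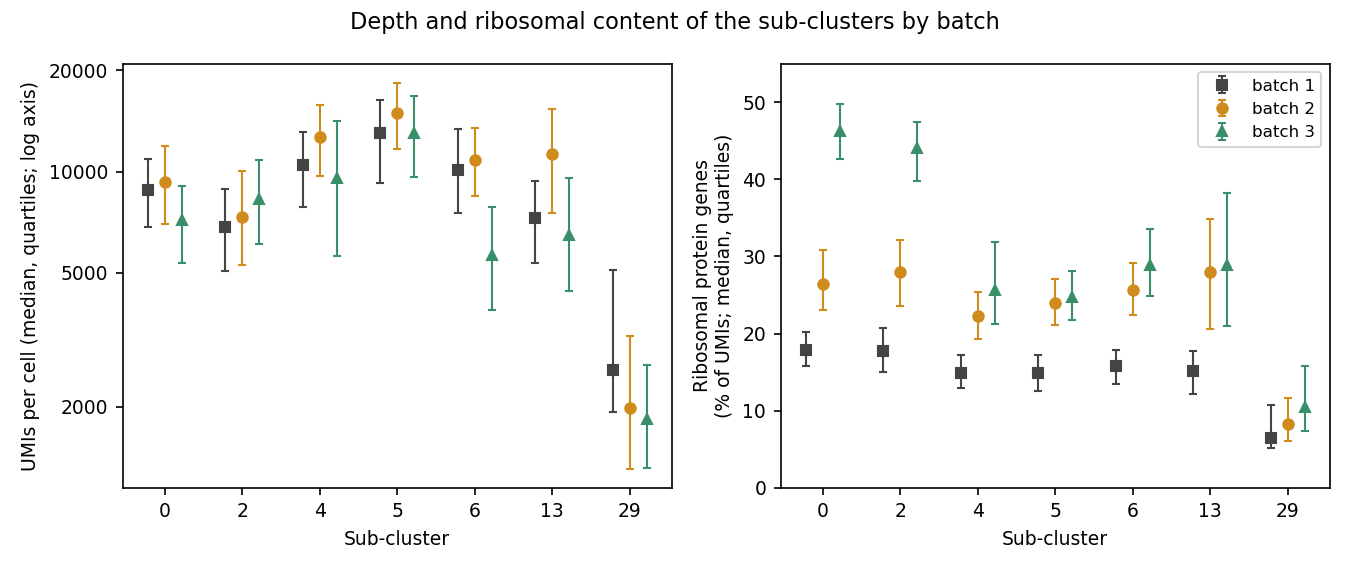
Median UMIs per cell (left, log axis) and median percent of UMIs from ribosomal protein genes (right) of the 7 large sub-clusters, one symbol per batch, with bars for the quartiles over cells. Sub-cluster 5 is the deepest and sub-cluster 29 the shallowest, and sub-clusters 0 and 2 reach medians of 46.3% and 44.0% ribosomal UMIs in batch 3.

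Specimens of batch 3 cover both sites, which shows the pattern within one batch. In the 6 inter-implantation specimens of batch 3, sub-cluster 0 had medians between 42.4 and 47.4% and sub-cluster 5 between 25.9 and 30.2%. In the batch 3 myometrium/endometrium specimens of day 12, sub-cluster 0 had 42.0% in cKO and 39.7% in control, and sub-cluster 5 had 25.03% and 23.8%. Sub-cluster 0 was nearly empty in these day 12 specimens, with 0.593% of coarse cluster 0 in cKO and 1.51% in control, so its medians there rest on few cells. In batch 2, inter-implantation medians of sub-cluster 0 lay between 24.5 and 32.0% over days 12 to 18.

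**Figure D2:**
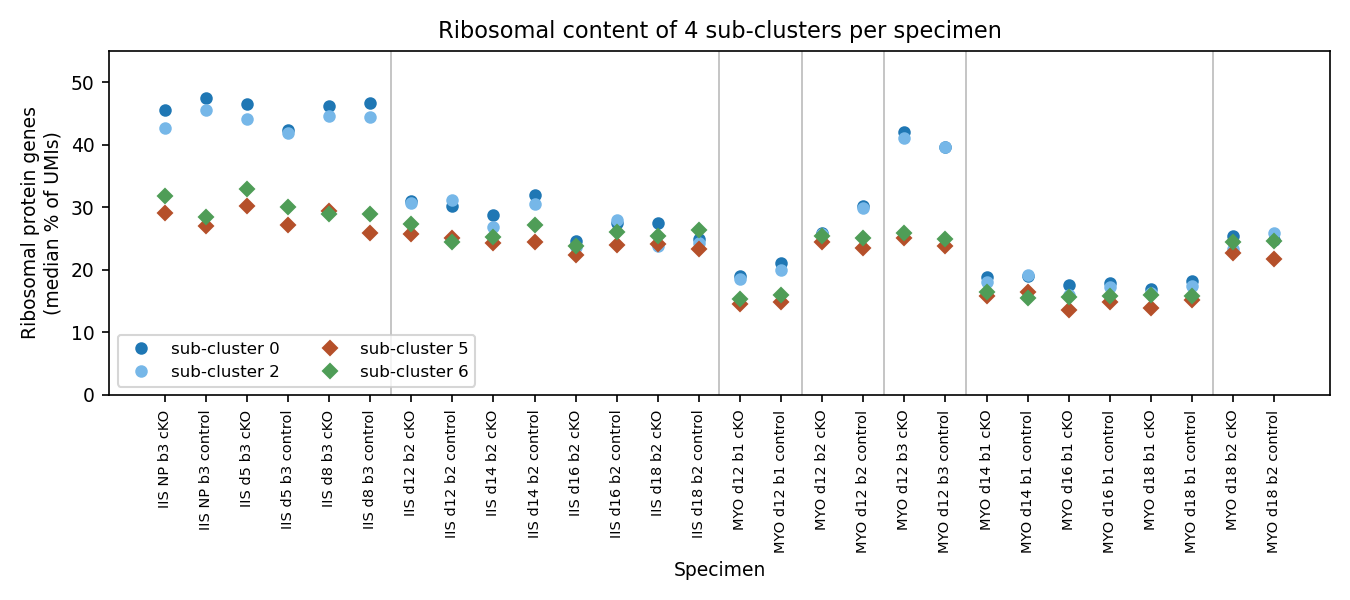
Median percent of UMIs from ribosomal protein genes in 4 sub-clusters of each specimen (IIS, inter-implantation; MYO, myometrium/endometrium; NP, non-pregnant; d, gestation day; b, batch), with vertical lines where batch or site changes. Sub-clusters 0 and 2 lie at 39.7% or more in every batch 3 specimen and at 32.0% or less in all others.

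The share of coarse cluster 0 among all cells passed no test between genotypes. In inter-implantation tissue it was 33.4% in cKO and 16.8% in control at day 5, 38.1% and 41.4% at day 8, and 37.4% and 29.4% at day 12. At day 14 it was 30.4% in cKO and 44.3% in control, at day 16 28.5% and 59.6%, and at day 18 36.5% and 49.9%. The cKO specimens stayed within a narrow band, 34.1% ± 3.94 (SD, n = 6), and lay below control from day 14 on, while control specimens ranged widely, 40.2% ± 15.2 (SD, n = 6). The log2 difference over days was -0.14 (SE 0.32, edgeR adjusted p = 0.929 quasi-likelihood test with Benjamini-Hochberg adjustment over coarse clusters), and 3 of 18 coarse clusters (16.7%) passed in this comparison. Within batch 2 (days 12 to 18) it was -0.43 and within batch 3 (days 5 and 8) 0.43. The difference between the later and the earlier days in this genotype effect was -0.87 (SE 0.67, edgeR adjusted p = 0.530), with 2 of 18 coarse clusters (11.1%) called.

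In myometrium/endometrium the shares at day 12 were 10.8%, 46.3% and 36.3% in the cKO specimens of batches 1, 2 and 3, against 11.1%, 29.7% and 34.3% in control. They were 13.8% in cKO and 13.8% in control at day 14, and 16.1% and 23.5% at day 16. At day 18 they were 24.1% and 38.6% in the cKO specimens of batches 1 and 2, against 20.3% and 43.0% in control. The batches stood further apart than the genotypes, whose values overlapped, with means of 26.6% ± 13.9 in cKO and 25.1% ± 11.3 in control (SD, n = 7 each). The log2 difference was 0.05 (SE 0.36, edgeR adjusted p = 0.939), and none of 17 coarse clusters (0%) passed by any of edgeR, limma and DESeq2; by edgeR 0 had an unadjusted p under 0.05.

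Over all 10 combinations of site and day the share was higher in cKO in 3 and lower in 7, with a log2 difference of -0.04 (SE 0.24, edgeR adjusted p = 0.887). None of 17 coarse clusters (0%) passed by edgeR, with 2 at an unadjusted p under 0.05, none by limma and 1 by DESeq2, which was not coarse cluster 0. The interaction of genotype with site did not pass (-0.20, SE 0.50, edgeR adjusted p = 0.902; 1 of 17 coarse clusters, 5.88%, called). Counting error was small beside the spread between specimens: the exact 95% binomial interval of the day 18 inter-implantation cKO specimen, which held 1873 cells, was 34.3 to 38.7%.

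**Figure D3:**
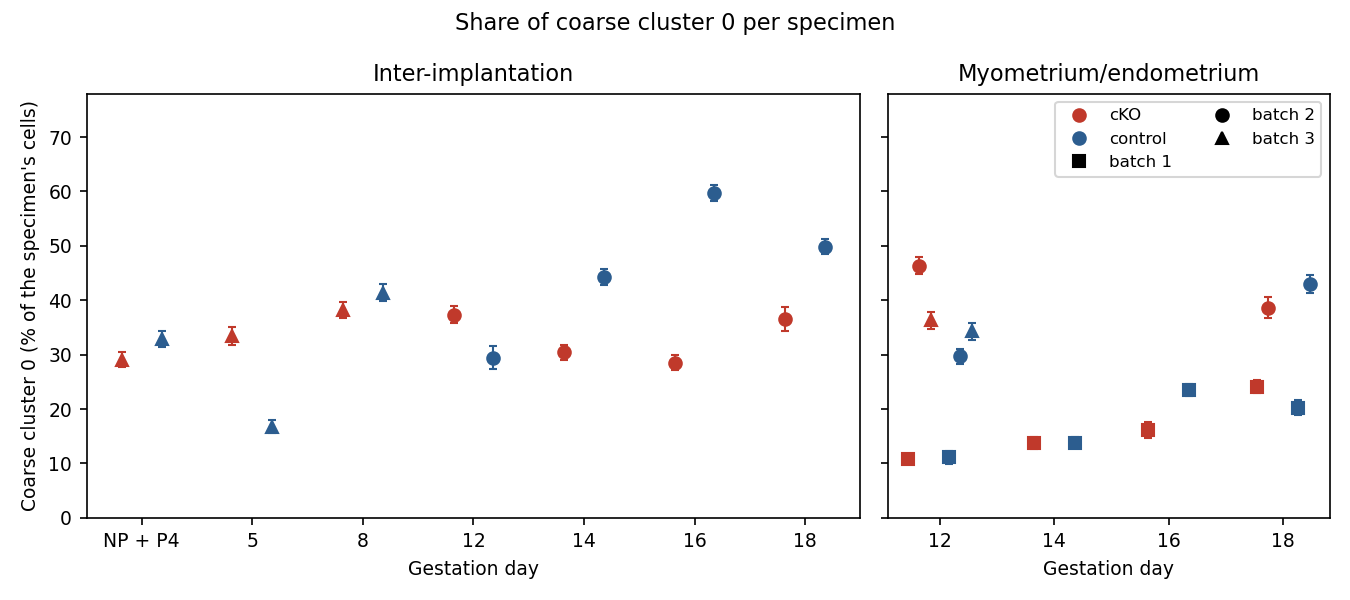
Coarse cluster 0 as a percent of each specimen's cells against gestation day (NP + P4, non-pregnant with progesterone), cKO in red left of control in blue, symbols by batch, bars for exact 95% binomial intervals. Control inter-implantation specimens spread between 16.8 and 59.6%, and batch 1 specimens are the lowest in myometrium/endometrium.

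Along gestation the share of coarse cluster 0 rose in control inter-implantation tissue, where it was 16.8% at day 5, 41.4% at day 8, 29.4% at day 12, 44.3% at day 14, 59.6% at day 16 and 49.9% at day 18. The slope was 0.10 log2 units per day (SE 0.04, edgeR adjusted p = 0.0384), one of 8 slopes called among 18 coarse clusters (44.4%). The call rested on few specimens. It was kept without day 8 (0.14 per day, adjusted p = 0.000205) and lost without day 5 (0.05, adjusted p = 0.403), day 12 (0.10, adjusted p = 0.0959), day 14 (0.10, adjusted p = 0.0649), day 16 (0.09, adjusted p = 0.133) or day 18 (0.12, adjusted p = 0.0795). Days 5 and 8 are batch 3 and the later days batch 2, and with batch as a covariate the slope was 0.20 (adjusted p = 0.119, edgeR), in a fit that called 6 of 18 coarse clusters (33.3%). In control myometrium/endometrium the slope was 0.06 (SE 0.09, edgeR adjusted p = 0.820), and none of 17 coarse clusters (0%) passed by edgeR, with 2 at an unadjusted p under 0.05, none by limma and 2 by DESeq2.

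Between sites, control inter-implantation specimens of days 12 to 18 had 29.4 to 59.6% and control myometrium/endometrium specimens had 11.1 to 43.0%, and the ranges overlapped. The log2 difference was 0.90 (SE 0.42, edgeR adjusted p = 0.212), and it was 0.14 with batch as a covariate. None of 18 coarse clusters (0%) passed by edgeR, with 3 at an unadjusted p under 0.05, none by limma and 2 by DESeq2. Inter-implantation specimens of these days are all of batch 2, and most of the others are of batch 1, the batch with the lowest shares.

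In the non-pregnant specimens with progesterone the share was 29.02% (exact 95% interval 27.6 to 30.4) in cKO and 32.9% (31.4 to 34.4) in control. These were set beside day 5 without a test, as each is 1 specimen per genotype. The day 5 values were 33.4% (31.8 to 35.1) in cKO and 16.8% (15.5 to 18.1) in control. In the non-pregnant specimens sub-clusters 0, 2 and 6 made up most of the population: sub-cluster 0 was 40.1% of it in cKO and 42.3% in control, sub-cluster 2 was 27.0% and 30.7%, and sub-cluster 6 was 16.5% and 14.6%. Sub-clusters 4, 5 and 13 each made up between 1.12 and 2.39% in these specimens.

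Sub-cluster 13 made up a larger part of coarse cluster 0 in cKO than in control inter-implantation tissue from day 12 on. As shares of 1 whole, the sub-clusters cannot move independently: where one is larger, others are smaller. As a percent of coarse cluster 0 in inter-implantation tissue, sub-cluster 13 was 2.53% in cKO and 1.91% in control at day 5 and 3.34% and 2.53% at day 8. It was 36.5% in cKO and 1.73% in control at day 12, and 18.4% and 0.987% at day 14. It was 12.7% in cKO and 0.496% in control at day 16, and 7.32% and 0.255% at day 18. The cKO value was the higher on 6 of 6 days, and the groups did not overlap from day 12 on, where cKO averaged 18.7% ± 12.7 and control 0.867% ± 0.651 (SD, n = 4 each). Counts behind these control values are small: 9, 18, 13 and 6 cells at days 12, 14, 16 and 18, against 526, 255, 144 and 50 in cKO. The day 12 control specimen held 520 coarse cluster 0 cells, with a median of 6075 UMIs against 12235.5 in cKO. Of these control cells 23.7% were in the low-UMI sub-cluster 29, and their part in the day 12 contrast was not tested.

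Over all inter-implantation days the log2 difference of sub-cluster 13 was 3.23 (SE 0.83), which did not pass (adjusted p = 0.106, edgeR, over all sub-clusters of all coarse clusters). In that comparison 1 of 50 sub-clusters (2%) passed, and none of the 9 in coarse cluster 0, of which 4 had an unadjusted p under 0.05. Limma called none of the 9, and DESeq2 called 4 (sub-clusters 0, 4, 5 and 13) among the 9 of 50 (18%) that it called overall. The median difference of the 9 was -0.18, beside 0.01 over all 50. Any sub-cluster that makes up nearly all of its coarse cluster can hardly change in share, and such sub-clusters were not excluded, here or below. The adjusted p of sub-cluster 13 passed without day 5 cKO (0.0361) or control (0.0356) and without day 8 cKO (0.0366) or control (0.0386), with differences of 3.75, 3.75, 3.83 and 3.83. Where a site and day has 1 specimen per genotype, leaving out either specimen drops the same pair from the genotype estimate. Both fits of such a day are nearly the same check, here and in the genotype fits below.

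Taken by period, the difference of sub-cluster 13 was 4.50 (SE 0.17, edgeR adjusted p = 0.000201) over days 12 to 18 in batch 2, where 8 of 49 sub-clusters (16.3%) passed, and 0.40 (SE 0.15, edgeR adjusted p = 0.530) at days 5 and 8 in batch 3. The test of the difference between these periods gave 4.09 (SE 0.24, edgeR adjusted p = 0.00016), and sub-cluster 13 was the only one of 50 sub-clusters (2%) that passed. This comparison was added after the values were seen. Its value lay between 4.005 and 4.20 in the 12 fits that left out 1 specimen. As above, both fits of a day drop the same pair, so these are not 12 separate checks. The SEs of these differences, taken from F, lie below the counting error of the small control counts (6 to 18 cells per late specimen). They therefore understate the uncertainty. Later days and batch 2 coincide in this tissue, and the effects of day and batch cannot be told apart.

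In myometrium/endometrium sub-cluster 13 was 14.1%, 22.7% and 9.12% of coarse cluster 0 in the day 12 cKO specimens of batches 1, 2 and 3, against 8.14%, 7.18% and 5.74% in control. It was 7.26% in cKO and 7.93% in control at day 14, and 5.24% and 2.75% at day 16. At day 18 it was 3.14% and 1.84% in cKO specimens of batches 1 and 2, against 1.72% and 0.993% in control. The cKO specimen was the higher in 6 of 7 pairs of the same day and batch, and the genotypes did not overlap at day 12. The log2 difference was 0.87 (SE 0.26, adjusted p = 0.172), and none of 50 sub-clusters (0%) passed by any of edgeR, limma and DESeq2; by edgeR 3 had an unadjusted p under 0.05, 1 of them in coarse cluster 0. The interaction of genotype with site was 2.36 (SE 0.75, edgeR adjusted p = 0.109); 0 of 51 sub-clusters (0%) passed, with 6 at an unadjusted p under 0.05, none by limma and 1 by DESeq2. Leaving out the day 5 cKO or control or the day 8 cKO or control inter-implantation specimen brought that interaction past the threshold (2.88, 2.88, 2.96 and 2.96, adjusted p = 0.0211, 0.0218, 0.0186 and 0.0190). Here too, both fits of a day drop the same pair.

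Sub-cluster 0, the largest part of the population, lay lower in cKO in late inter-implantation tissue. It was 28.2% of coarse cluster 0 in cKO and 26.0% in control at day 5, and 28.9% and 37.1% at day 8. It was 3.54% in cKO and 11.2% in control at day 12, and 4.76% and 21.9% at day 14. It was 6.06% in cKO and 35.7% in control at day 16, and 16.8% and 59.4% at day 18. From day 12 on the share was higher at each later day in both genotypes, and every cKO value was below the control of its day. The log2 difference was -1.42 (SE 0.44, adjusted p = 0.106) over all inter-implantation days, and it passed without the day 5 cKO (-1.72, adjusted p = 0.0391) or day 5 control specimen (-1.72, adjusted p = 0.0422). Within batch 2 it was -2.06 (SE 0.26, adjusted p = 0.0135), all by edgeR. The difference between days 12 to 18 and days 5 and 8 was -1.94 (SE 0.42, edgeR adjusted p = 0.0919).

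In myometrium/endometrium sub-cluster 0 was 8.95%, 2.43% and 0.593% of coarse cluster 0 in the day 12 cKO specimens of batches 1, 2 and 3, against 10.7%, 6.68% and 1.51% in control. It was 12.7% in cKO and 17.0% in control at day 14, and 9.73% and 34.8% at day 16. At day 18 it was 23.6% and 26.3% in cKO specimens of batches 1 and 2, against 46.3% and 22.4% in control. The cKO specimen was lower in 6 of 7 pairs, with the exception at day 18 in batch 2, and the log2 difference was -0.73 (SE 0.55, edgeR adjusted p = 0.960). That fit had day as its only covariate and did not use the pairs. With the pairs as blocks, edgeR called 0 of 50 sub-clusters (0%) at this site. In that fit 5 had an unadjusted p under 0.05, 2 of them among the 7 of coarse cluster 0.

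Over both sites together, none of 51 sub-clusters (0%) passed between genotypes by edgeR, with 9 at an unadjusted p under 0.05, 4 of them among the 8 of coarse cluster 0. Limma called 1 (1.96%) and DESeq2 called 2 (3.92%), all in coarse cluster 0. The median difference of the 8 was 0.19, beside 0.04 over all 51. Sub-cluster 13 had the lowest p, with 11.1% ± 9.98 in cKO and 3.26% ± 2.91 in control (SD, n = 13 each), a log2 difference of 1.79 (SE 0.47, edgeR adjusted p = 0.0710). It passed without the cKO specimen of day 12 batch 1 (1.85, adjusted p = 0.0449), the cKO (1.97, adjusted p = 0.0414) or control (1.97, adjusted p = 0.0424) specimen of day 14 or the control specimen of day 18 batch 1 (1.89, adjusted p = 0.0450), all myometrium/endometrium. Among cells with at least 3000 UMIs it was as large and passed (1.81, SE 0.45, edgeR adjusted p = 0.0224). Sub-cluster 0 had 13.3% ± 10.3 and 25.4% ± 16.7, a difference of -1.05 (SE 0.38, edgeR adjusted p = 0.208), and was lower in cKO in 9 of 10 combinations of site and day. With specimens of the same site, day and batch paired as a replicate block the difference of sub-cluster 0 was -1.11 (adjusted p = 0.0286, edgeR), the only one of 51 (1.96%) called in that fit. Without the day 12 cKO myometrium/endometrium specimen of batch 1 it was -1.30 (adjusted p = 0.0449) in the unpaired fit.

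**Figure D4:**
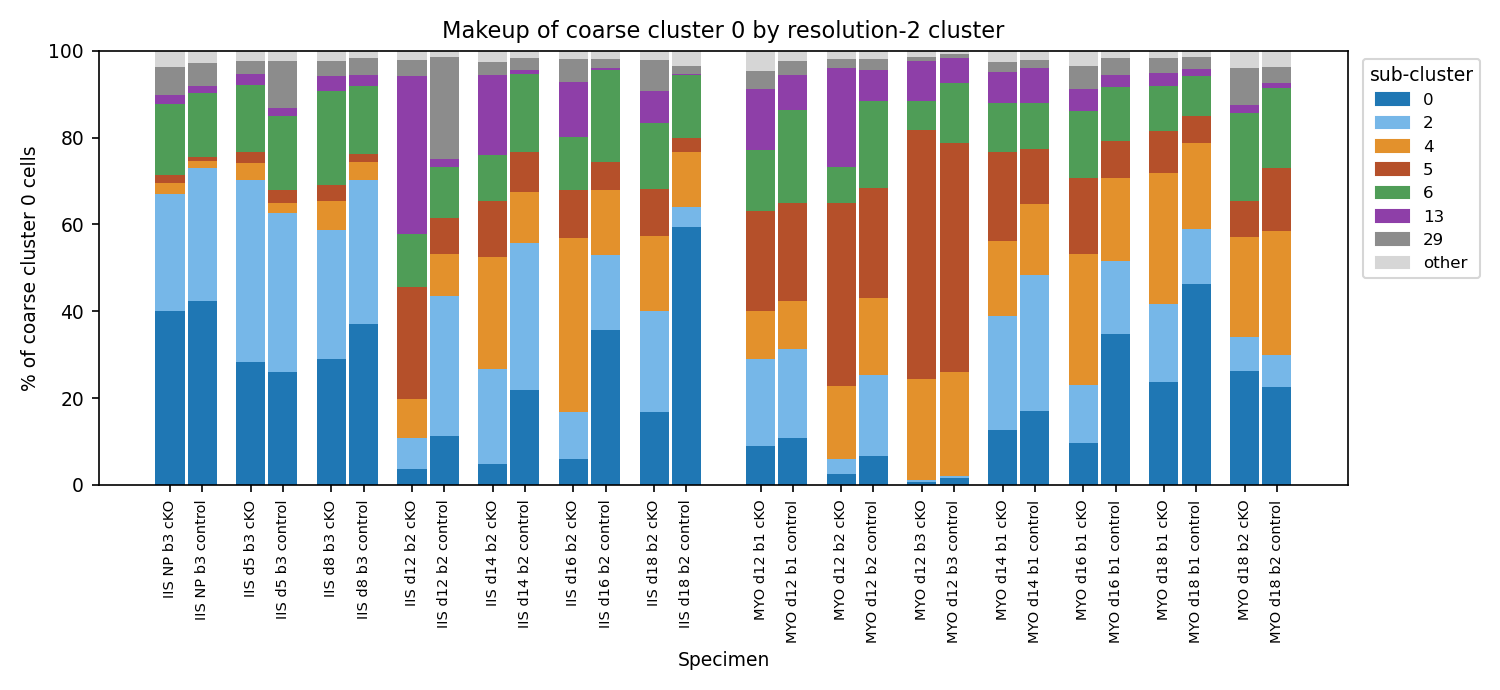
Makeup of coarse cluster 0 in every specimen as stacked percents of its cells, by sub-cluster, cKO left of control in each pair of the same site, day and batch (IIS, inter-implantation; MYO, myometrium/endometrium; NP, non-pregnant; d, gestation day; b, batch). Sub-cluster 13 (purple) reaches 36.5% in the day 12 inter-implantation cKO specimen against 1.73% in its control. That control held 520 coarse cluster 0 cells, 23.7% of them in sub-cluster 29. In inter-implantation tissue sub-cluster 0 (dark blue) is narrower at day 12 than on the earlier days and widens from day 12 to day 18.

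Sub-clusters 4 and 5, the deep ones, were the higher in cKO in most inter-implantation specimens without passing the test. Sub-cluster 4 was 3.97% of coarse cluster 0 in cKO and 2.25% in control at day 5, 6.69% and 4.22% at day 8 and 9.17% and 9.62% at day 12. It was 25.9% in cKO and 11.6% in control at day 14, 40.2% and 15.1% at day 16, and 17.3% and 12.5% at day 18. Day 16 cKO was the highest and day 12 the exception in direction, and the log2 difference was 0.75 (SE 0.22, edgeR adjusted p = 0.106). As a percent of all cells sub-cluster 4 was higher in cKO on 6 of 6 inter-implantation days. In myometrium/endometrium it was higher in cKO in 3 of 7 pairs of the same day and batch as a percent of coarse cluster 0 and in 5 of 7 as a percent of all cells, with a log2 difference within coarse cluster 0 of 0.12 (SE 0.22, edgeR adjusted p = 0.960).

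Sub-cluster 5 in inter-implantation tissue ranged in cKO from 2.44 to 25.6% of coarse cluster 0 (median 10.9%, n = 6) and in control from 1.88 to 9.33% (median 4.88%, n = 6). It was higher in cKO on 5 of 6 days, with a log2 difference of 0.89 (SE 0.28, edgeR adjusted p = 0.106), which passed without the day 5 cKO (1.09, adjusted p = 0.0361) or day 5 control specimen (1.09, adjusted p = 0.0356). As a percent of all cells sub-cluster 5 was higher in cKO on 4 of 6 inter-implantation days; it was 3.94% in cKO and 4.13% in control at day 14, and 3.18% and 3.87% at day 16. In myometrium/endometrium its share within coarse cluster 0 was higher in cKO in 6 of 7 pairs, with the exception at day 18 in batch 2. At day 12 it was 23.2%, 42.0% and 57.4% in the cKO specimens of batches 1, 2 and 3, against 22.5%, 25.3% and 52.8% in control. It was 20.5% in cKO and 12.6% in control at day 14, and 17.5% and 8.46% at day 16. At day 18 it was 9.83% and 8.19% in cKO specimens of batches 1 and 2, against 6.22% and 14.7% in control. The log2 difference there was 0.30 (SE 0.30, edgeR adjusted p = 0.960).

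Sub-clusters 2 and 6 showed no difference by genotype that passed. Sub-cluster 2 took 0.593 to 42.1% of coarse cluster 0 in cKO (median 18.1%) and 0.453 to 36.6% in control (median 18.7%, n = 13 each), with a log2 difference of -0.26 (SE 0.51, edgeR adjusted p = 0.926). Sub-cluster 6 ranged from 6.82 to 21.7% in cKO and from 9.26 to 21.5% in control, and its log2 difference over both sites was -0.25 (SE 0.19, edgeR adjusted p = 0.632). Sub-cluster 29, the one with few UMIs and a high mitochondrial share, reached 23.7% of coarse cluster 0 in the day 12 and 10.9% in the day 5 inter-implantation control specimen, against 3.54% and 2.89% in the cKO specimens of those days. On the other inter-implantation days sub-cluster 29 was 3.47% in cKO and 3.89% in control at day 8, 3.03% and 2.69% at day 14, 5.36% and 2.10% at day 16, and 7.03% and 1.78% at day 18. The cKO specimen was the higher on 3 of 6 inter-implantation days and in 6 of 7 myometrium/endometrium pairs. Its log2 difference over both sites was 0.16 (SE 0.38, edgeR adjusted p = 0.926).

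**Figure D5:**
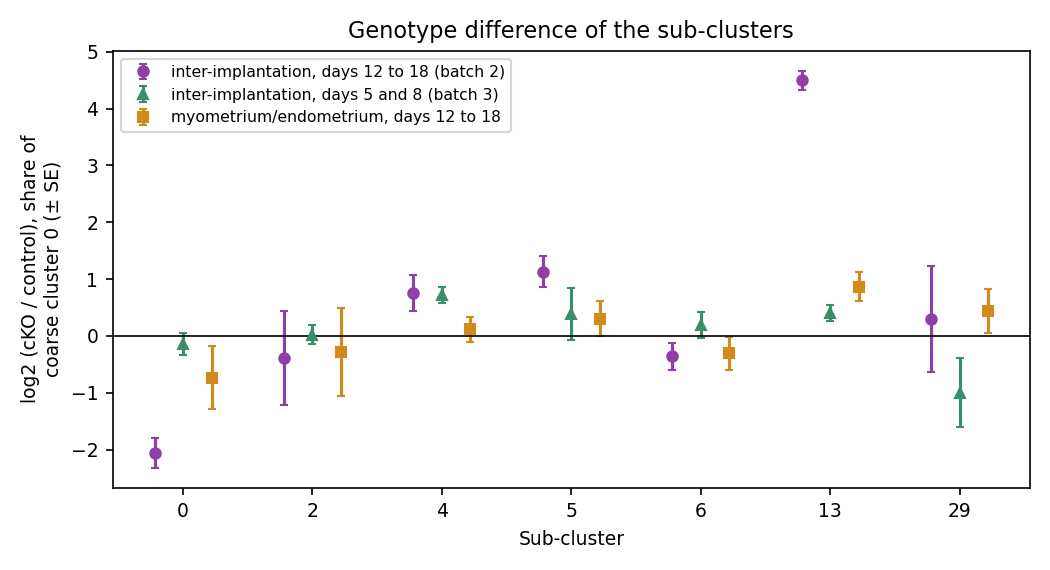
Log2 difference (cKO over control, ± SE) of each large sub-cluster's share of coarse cluster 0, from edgeR fits in late inter-implantation specimens (circles), early inter-implantation specimens (triangles) and myometrium/endometrium specimens (squares). Sub-cluster 13 lies at 4.50 and sub-cluster 0 at -2.06 in the late inter-implantation fit, against 0.40 and -0.14 in the early one. The SE is the difference over the square root of F, and its bars can be shorter than counting error, as for sub-cluster 13.

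The makeup changed along gestation in control inter-implantation tissue. Of 51 sub-clusters 9 (17.6%) had a slope that passed by edgeR, and of the 9 in coarse cluster 0 these were 4, 49 and 13; the median slope of the 9 was 0.01 per day, as over all 51. Sub-cluster 4 rose by 0.21 log2 units per day (SE 0.03, adjusted p = 0.0258) and sub-cluster 49 by 0.36 (SE 0.06, adjusted p = 0.0258). Sub-cluster 13 fell by 0.23 per day (SE 0.06, adjusted p = 0.0484). The slope of sub-cluster 4 was lost without day 5 (0.17, adjusted p = 0.107), day 14 (0.20, adjusted p = 0.0522) or day 16 (0.20, adjusted p = 0.0753), and that of sub-cluster 49 without day 14 (0.36, adjusted p = 0.0522) or day 16 (0.35, adjusted p = 0.0753). Without day 18 sub-cluster 49 was not tested, so the part of that specimen in its slope is not known. The slope of sub-cluster 13 was lost without day 8 (-0.20, adjusted p = 0.116), day 14 (-0.24, adjusted p = 0.0816), day 16 (-0.22, adjusted p = 0.178) or day 18 (-0.18, adjusted p = 0.191). With batch as a covariate none of these 3 slopes passed and those of sub-clusters 0 (0.35, adjusted p = 0.0260) and 29 (-0.60, adjusted p = 0.0260) did, among 8 of 51 (15.7%).

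In control myometrium/endometrium none of 50 sub-clusters (0%) had a slope that passed by edgeR, with 12 at an unadjusted p under 0.05, 3 of them among the 7 of coarse cluster 0; limma called 1 and DESeq2 called 8. These 3 were sub-cluster 0 (0.44 per day, adjusted p = 0.122), sub-cluster 5 (-0.29, adjusted p = 0.122) and sub-cluster 13 (-0.40, adjusted p = 0.0707). The slope of sub-cluster 13 passed without the day 12 specimen of batch 3 (-0.44, adjusted p = 0.0341) or the day 14 specimen (-0.39, adjusted p = 0.0254). With batch as a covariate 7 of 50 (14%) passed, 4 of them in coarse cluster 0.

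Between sites in control specimens of days 12 to 18, sub-cluster 13 was lower in inter-implantation tissue. It was 0.255 to 1.73% of coarse cluster 0 there, against 0.993 to 8.14% in myometrium/endometrium, a log2 difference of -2.42 (SE 0.25, edgeR adjusted p = 0.000765). It was one of 7 called among 51 sub-clusters (13.7%) and the only one among the 8 of coarse cluster 0, whose median difference was 0.21 beside 0.09 over all 51, and its call was kept in all 11 fits that left out 1 specimen. With batch as a covariate the difference was -2.10 (adjusted p = 0.00781), and within batch 2, with 2 days in common, -1.997 (adjusted p = 0.267). With cKO specimens included it was -0.11 (adjusted p = 0.976). Sub-clusters 4 and 5 had differences of -0.70 and -1.21 (adjusted p = 0.151 each) without the covariate, and -1.03 (adjusted p = 0.00781) and -1.68 (adjusted p = 0.0212) with it, and sub-cluster 0 had 0.58 (adjusted p = 0.509) and 1.09 (adjusted p = 0.0125), all by edgeR; the fit with the covariate called 4 of 51 (7.84%).

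Depth, ribosomal content and phase calls of coarse cluster 0 cells did not pass a test between genotypes. The specimens' median UMIs averaged 9921 ± 2019 in cKO and 8891 ± 2188 in control (SD, n = 13 each), and the mean difference within site and day was 1186 UMIs (p = 0.0978, adjusted p = 0.380 over 5 measures, two-sided exact permutation test of genotype within site and day). The cKO median was the higher in 10 of 13 pairs of the same day and batch. Ribosomal content was 24.4% ± 8.89 in cKO and 24.9% ± 7.997 in control, a difference of -0.56 percentage points (adjusted p = 0.578, exact permutation test), and mitochondrial content differed by 0.14 points (adjusted p = 0.380, exact permutation test). S calls were 6.45% ± 3.71 in cKO and 8.09% ± 4.78 in control, and G2M calls 3.42% ± 2.88 and 5.05% ± 7.54, with differences of -2.02 points each (adjusted p = 0.380 each, exact permutation test). Across site and day combinations S calls were lower in cKO in 6 of 10 and G2M calls were higher in cKO in 6 of 10. Leaving out 1 specimen at a time, no measure passed, and the differences lay between 633 and 1508 UMIs, between -1.14 and -0.143 points for ribosomal content, between 0.0928 and 0.167 points for mitochondrial content, between -2.59 and -0.624 points for S calls and between -2.39 and -0.276 points for G2M calls. The values of 633 UMIs and -0.624 points for S calls came from leaving out either day 12 inter-implantation specimen, and that of -0.276 points for G2M calls from leaving out either day 5 inter-implantation specimen. The sub-clusters themselves differ in depth and ribosomal content, and the part of the makeup in these values was not tested.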

How the data were processed

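Single-cell RNA libraries of mouse uterus were represented by 1 annotation table of cells from 7 pools. Per the labels, Cell Ranger, Seurat and the build mm10 entered the processing, with no version or setting stated. Per the file headers, the authors deposited the count of UMIs and genes of each cell without normalization, the percent of UMIs from mitochondrial genes (none above 20%) and ribosomal protein genes, S and G2M score values with phase calls, and Louvain cluster numbers. The score columns were not tested. The authors' filter on cells and their hashing assignment, with no rule stated in the labels, were taken as deposited. No columns of samples from elsewhere (0) were present.

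Cells were counted per specimen (site, day, genotype and batch, with its pools added) and cluster. The members, sub-clusters and comparisons were chosen with earlier results of these data known. The sub-clusters named are those holding at least 1% of coarse cluster 0; sub-clusters 49 and 30 were named after their values were seen. The quasi-likelihood test of edgeR 4.0.16 under R 4.3.3 was applied to these counts, with all cells of the specimen as library size for coarse clusters, or the log of its cells in the same coarse cluster plus 1 as an offset for sub-clusters, and no composition factor. Site by day was the covariate in genotype fits over both sites. Day was the covariate in genotype fits of a single site and in the fit between sites, and slope fits had none. A feature was tested where specimens averaged 10 cells or more, p-values were Benjamini-Hochberg adjusted over all features tested, the threshold was 0.05, and SE is the log2 difference over the square root of F. Quality and phase were tested by exact permutation within site and day (30720 arrangements). Alternatives used limma 3.58.1, DESeq2 1.42.0, TMM factors, cells with at least 500 genes or 3000 UMIs, batch as covariate, single batches, other resolutions and leaving out specimens. Before use, the genotype fits over both sites and in inter-implantation tissue were checked on simulated counts. These had large changes in small clusters, no day, site or batch effects, and all cells as library size also for sub-clusters. The other fits and smaller changes were not simulated.

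Specimens of the same site, day and batch were paired by the authors' batch annotation; where 2 or more batches exist, the deviations of pair members over the 7 large sub-clusters correlated by 0.98, -0.32 and 0.96 (day 12, batches 1, 2 and 3) and 0.48 (day 18). Intervals are exact binomial at 95% and cover counting error only. Depth could not be equalised by thinning, as no gene values were used.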

Additional observations from a re-analysis of the deposited data

Results flagged for a closer look

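In control myometrium/endometrium, sub-cluster 5 took 52.8% of coarse cluster 0 in the day 12 specimen of batch 3, far from the other 6 specimens of that group (6.22 to 25.3%); the cKO specimen of that day and batch had 57.4%. In control inter-implantation tissue, 18.3% of coarse cluster 0 cells were called S in the day 12 specimen, beside 3.18 to 8.67% in the others, and 28.4% were called G2M in the day 5 specimen, beside 0.114 to 9.15%. These specimens also had the largest shares of sub-cluster 29 among control inter-implantation specimens, 23.7% and 10.9% of coarse cluster 0, and the lowest coarse cluster 0 medians of that group, 6075 and 4808 UMIs; their part in the phase calls was not tested. In 52 groups examined in this way 3 had such a specimen; chance gives about 1 in 20, and the specimens of a group differ in day.

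The genotype difference of sub-cluster 13 within coarse cluster 0 differed between late and early inter-implantation days by 4.09 log2 units (adjusted p = 0.00016, edgeR). Its share was higher in cKO on 4 of 4 late and 2 of 2 early days, with overlapping exact intervals on the early days. Day and batch cannot be told apart.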

How the results depend on the processing

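The share of coarse cluster 0 passed between genotypes under no alternative run. Its log2 difference changed sign, without a call, over all site and day combinations with at least 3000 UMIs (0.0157) and within batch 3 (0.32), in inter-implantation tissue within batch 3 (0.43), in myometrium/endometrium with TMM factors (-0.0581) and within batch 1 (-0.0847), and for genotype by site within batch 3 (0.35). At the next finer resolution, cluster 0 of resolution 0.4 was tested instead, which held 60.8% of the cells of coarse cluster 0. That cluster's log2 difference in myometrium/endometrium was -0.0633, without a call. The control inter-implantation slope of coarse cluster 0 no longer passed with limma (0.11), at least 3000 UMIs (0.0858), batch as covariate (0.20), both genotypes (0.0434) or within batch 2 (0.14). The slope of the resolution 0.4 cluster (0.0882) did not pass either. G2M calls differed by 0.11 points in myometrium/endometrium alone. Within batch 3 the genotype by site terms changed sign for sub-cluster 0 (1.20) and sub-cluster 13 (-0.26). Calls among the sub-clusters of coarse cluster 0 between genotypes over both sites numbered 0, and 2 with DESeq2. They numbered 1 with TMM factors, limma, at least 500 genes, at least 3000 UMIs, batch as covariate or the replicate block. Over all 51 sub-clusters, edgeR called 0 (0%) and DESeq2 called 2 (3.92%). Limma, batch as covariate and the replicate block each called 1 (1.96%) of all 51. In inter-implantation tissue, calls in coarse cluster 0 numbered 0, against 4 with DESeq2 and 2 within batch 2. These fits called 1 of 50 (2%), 9 of 50 (18%) and 8 of 49 (16.3%) of all sub-clusters. For genotype by site they numbered 0, against 1 with DESeq2 or within batch 2. Of all sub-clusters, 0 of 51 (0%), 1 of 51 (1.96%) and 3 of 48 (6.25%) were called there. For later against earlier days they numbered 1, against 2 with limma or DESeq2. Of all sub-clusters, 1 of 50 (2%), 4 of 50 (8%) and 3 of 50 (6%) were called there. Between sites, calls in coarse cluster 0 numbered 1, against 3 with DESeq2, 4 with batch as covariate and 0 within batch 2 or without batch 1. Of all sub-clusters, edgeR called 7 of 51 (13.7%) and DESeq2 called 10 of 51 (19.6%). The fit with batch as covariate called 4 of 51 (7.84%) and that within batch 2 called 0 of 47 (0%). For the inter-implantation slope, calls in coarse cluster 0 numbered 3, against 1 with TMM factors and 6 within batch 2. Of all sub-clusters, edgeR called 9 of 51 (17.6%), and 12 of 47 (25.5%) within batch 2. For the myometrium/endometrium slope they numbered 0, against 1 with limma or at least 500 genes and 2 within batch 1. They numbered 3 with DESeq2 or both genotypes and 4 with batch as covariate. Of all sub-clusters, 0 of 50 (0%) were called by edgeR, 1 (2%) by limma and 8 (16%) by DESeq2. With both genotypes 12 of 50 (24%) were called, with batch as covariate 7 of 50 (14%) and within batch 1 5 of 46 (10.9%). Calls over all sub-clusters were not counted for TMM factors, the gene and UMI minima or without batch 1. Fits within 1 batch rest on few specimens. Causes were not tested. The replicate block changed no other call of a coarse cluster 0 result.

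Leaving out 1 specimen at a time, the share difference lay between -0.132 and 0.0488 over all combinations, -0.366 and 0.0411 in inter-implantation tissue, -0.12 and 0.19 in myometrium/endometrium and -0.42 and -0.01 for genotype by site; the slopes lay between 0.0534 and 0.141 and between -0.0434 and 0.116. Sub-clusters of coarse cluster 0 called lay between 0 and 2, 0 and 3, 0 and 0, and 0 and 1 for the same 4 comparisons. They lay between 0 and 4 and 0 and 1 for the 2 slopes, and at 1 for the site and later-day comparisons. Calls over all sub-clusters were not counted in these fits. Where a site and day has 1 specimen per genotype, leaving out either one drops the same pair from the genotype fits. The next coarser resolution was not run, because 0.2 is the coarsest in the annotation. Small cell counts limit single values: the day 18 inter-implantation control value of sub-cluster 13 rests on 6 cells.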
